A study of Mus musculus with 52 samples.

Results

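The G1 cyclins, the inhibitors of their kinases and the pocket protein gene Rbl2 were followed as 10 genes, Ccnd1, Ccnd2, Ccnd3, Ccne1, Ccne2, Cdkn1b, Cdkn2a, Cdkn2b, Cdkn2c and Rbl2, chosen by symbol out of 24421 symbols in the count files. RNA sequencing had been carried out on Cilia-APEX-IMCD3, an immortalised mouse inner medullary collecting duct line, in 52 libraries of 13 clones with 4 technical replicate libraries per clone. Mutant clones carried homozygous missense alleles of Wdr34 or Wdr60, which encode dynein-2 intermediate chains, made with the cytosine base editor BE4-Gam. Control clones had received the same editor and the guide vector without a target sequence. The non-ciliated cells were 1 Wdr34 clone, 1 Wdr60 clone and the control clones AB, 1, 2 and 3. The ciliated cells were the Wdr34 clones labelled 1 and 3, 1 Wdr60 clone and the control clones D8, H12, A4 and G7. The study names 1 allele of Wdr60 and 2 of Wdr34, of which 1 was made too late for the non-ciliated sequencing. The labels do not say which ciliated Wdr34 clone carries which. The methods also report a further heterozygous synonymous change in the Wdr60 clone and a heterozygous missense change in 1 Wdr34 clone. Clones had been sorted as single cells, so a mutation effect and a clone effect cannot be told apart where 1 clone stands for an allele. According to the methods, ciliation was induced in 0.2% serum in place of 10% serum for 50 h, while the labels give 10% serum for every sample. Cilia, serum and time of sequencing cannot be told apart in these files, and only Wdr60 is labelled in both states as a genotype with 1 clone each. The methods name 4 control and 3 mutant clones, and the labels do not say whether control clones of the 2 states are the same. The 13 groups of libraries are called clones here, and the tests treat them as separate. Of the 10 genes, 9 passed the filter on low counts, as did 13994 genes in all, and Ccnd2 did not.

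Levels are given in CPM, the counts of a gene relative to all counts of its library, scaled for library composition, as the mean of the 4 libraries of a clone with the SD between them. Library totals ranged from 14816218 to 28084979 counts, and all 52 libraries were closest in profile to their own clone. Non-ciliated control 2 stood apart from its state: it was most alike to ciliated control G7 (Pearson r = 0.966 across 12947 genes), as G7 was to it, and ciliated Wdr34 clone 3 was by r also most alike to G7 (r = 0.960). By the profile distance used for libraries, those of Wdr34 clone 3 were nearest to H12 or Wdr34 clone 1 after their own clone. The edited genes Wdr34 and Wdr60 were at 21.7 to 49.5 and 20.4 to 30.8 CPM over all clones, which is no check of missense edits. Pax2, Pax8 and Cdh16, which mark renal tubule epithelium, were present in all 13 clones at 80.6 CPM or more. Of 4 collecting duct genes in the epithelial list, Aqp2 and Elf5 had 1 and 7 counts over all libraries, Scnn1a 2029 and Tfcp2l1 124322. The epithelial adhesion genes Cdh1 and Epcam were at 4.22 and 2.86 CPM in control 2 and at 14.4 and 13.5 CPM in G7, against at least 242 and 183 CPM elsewhere. The 12 epithelial markers summed to 1071 CPM in control 2, 1868 in G7 and 2084 in Wdr34 clone 3, against 3154 to 4800.4 CPM in the other 10 clones. Of 3 proximal tubule markers Slc34a1 had 0 counts, while Lrp2 was at 272 CPM in control 2 and 447 CPM in G7 against 4.61 to 96.5 CPM elsewhere. Cubn, the third, had 9491 counts over all libraries. The 3 markers summed to 285 CPM in control 2 and 450 CPM in G7, nearly all of it Lrp2, so Cubn did not share its high level there. The 6 fibroblast markers summed to 31.2 CPM in Wdr34 clone 3, of which Dcn made 29.2, and to at most 5.52 CPM elsewhere, with Thy1 at 0 counts. Leukocyte, endothelial and podocyte markers summed to at most 1.92 CPM each, with Cd3e at 0 counts, and the thick ascending limb genes Umod and Slc12a1 to at most 9.73 CPM, in H12. The part of these clone differences in the results was not tested, and several results are also given without control 2, G7 or Wdr34 clone 3.

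**Figure D1:**
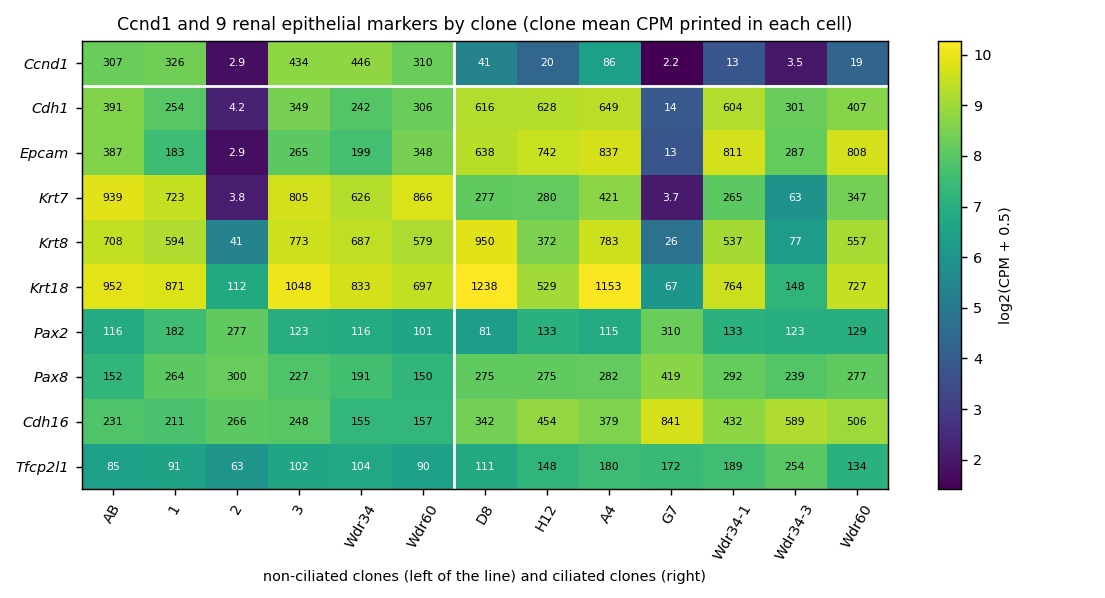
Clone mean level of Ccnd1 (top row) and of 9 renal epithelial markers, as log2(CPM + 0.5) by colour and as CPM in each cell, for the 6 non-ciliated and the 7 ciliated clones. Cdh1, Epcam and Krt7 were low in control 2 and G7, the clones in which Ccnd1 was also lowest, while Pax2, Pax8 and Cdh16 were present in all 13 clones.

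A cell commits to division in G1, when growth factors raise D-type cyclins, which switch on Cdk4 and Cdk6, and later E-type cyclins, which switch on Cdk2. These kinases phosphorylate the pocket proteins Rb1, Rbl1 and Rbl2 and so release E2F factors, which drive the genes of S phase. Inhibitors of the Ink4 family, encoded by Cdkn2a, Cdkn2b and Cdkn2c, bind Cdk4 and Cdk6, whereas p27, encoded by Cdkn1b, holds cyclin E and Cdk2 complexes in check in resting cells. Withdrawal of serum lets many cells leave the cycle, and the primary cilium is assembled in resting cells and resorbed when they re-enter it. IMCD3 cells were derived from mice carrying the early region of simian virus 40, whose large T antigen binds the pocket proteins and p53. Because the libraries hold bulk RNA, fewer cells with a transcript and less of it per cell cannot be told apart.

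Among the cyclins, the D-type gene Ccnd1, which couples growth factor signals to Cdk4, had by far the widest range. In non-ciliated control clones it was at 307 CPM ± 15.6 (SD, n = 4 libraries) in AB, 326 ± 6.59 in 1, 2.92 ± 0.275 in 2 and 434 ± 19.6 in 3. Ciliated control clones were at 41.3 ± 3.42 CPM in D8, 19.7 ± 2.49 in H12, 85.8 ± 8.65 in A4 and 2.18 ± 0.614 in G7. In 3 of 4 non-ciliated controls the level was thus 307 CPM or more, in all ciliated controls 85.8 CPM or less, and control 2 lay below 3 of the 4 ciliated controls. Non-ciliated mutants were at 446 ± 21.0 CPM in Wdr34 and 310.3 ± 43.9 in Wdr60. Ciliated mutants were at 13.4 ± 1.57 CPM in Wdr34 clone 1, 3.52 ± 0.157 in Wdr34 clone 3 and 19.4 ± 1.11 in Wdr60, so that the states did not overlap in mutants.

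The highest and the lowest clone mean of Ccnd1 differed 204-fold, against 1.84-fold to 6.80-fold for the 8 other genes that passed the filter. The median of the 5 other non-ciliated clones was 112-fold above control 2, and that of the 6 other ciliated clones was 8.96-fold above G7. These low levels rested on 43 to 64 counts per library in control 2, 26 to 52 in G7 and 59 to 77 in Wdr34 clone 3, against 4520 to 9042 counts per library in the 5 clones with high Ccnd1. Within a clone the libraries lay close together, so the spread of Ccnd1 was one between clones.

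In control clones the fitted state difference of Ccnd1 was -2.84 on the log2 scale (SE 1.19), that is 7.17-fold lower in ciliated cells, and did not pass the test (edgeR quasi-likelihood test on the 13 clone sums, adjusted p = 0.116). An exact two-sided permutation test over 4 against 4 clone means gave p = 0.286, where the smallest possible is 0.0286. Without controls 2 and G7, a choice made after seeing the data, the difference was -2.87 (SE 0.63) and passed (edgeR, adjusted p = 0.0128). Without control 2 alone it was -3.25 and passed as well (edgeR, adjusted p = 0.0274), while it was -2.46 without G7 and -3.69 without A4 and passed in neither fit. The difference passed in 7 of 28 alternatives, among them DESeq2 (-2.83, adjusted p = 0.0481). Another was a fit of single libraries with the clone as a random block (voomLmFit, -2.55, adjusted p = 0.0126). Over the 28 the adjusted p ranged from 1.88e-05, with technical libraries counted as samples, to 0.221. In mutant clones, 3 ciliated against 2 non-ciliated, the difference was -4.98 (SE 1.57, edgeR adjusted p = 0.0574). Over 28 alternatives the adjusted p ranged from 1.14e-07, with technical libraries counted as samples, to 0.228. The difference ranged from -5.49 to -4.54, and it passed in 10 of the alternatives. Among them were DESeq2 (adjusted p = 0.00617), a fit of the mutant groups alone (edgeR, adjusted p = 0.0222) and a filter of at least 10 counts in every clone (edgeR, adjusted p = 0.0481). It also passed without control 2 (edgeR, adjusted p = 0.0167) or without G7 (edgeR, adjusted p = 0.0331), which enter this comparison only through the spread shared over all groups.

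**Figure D2:**
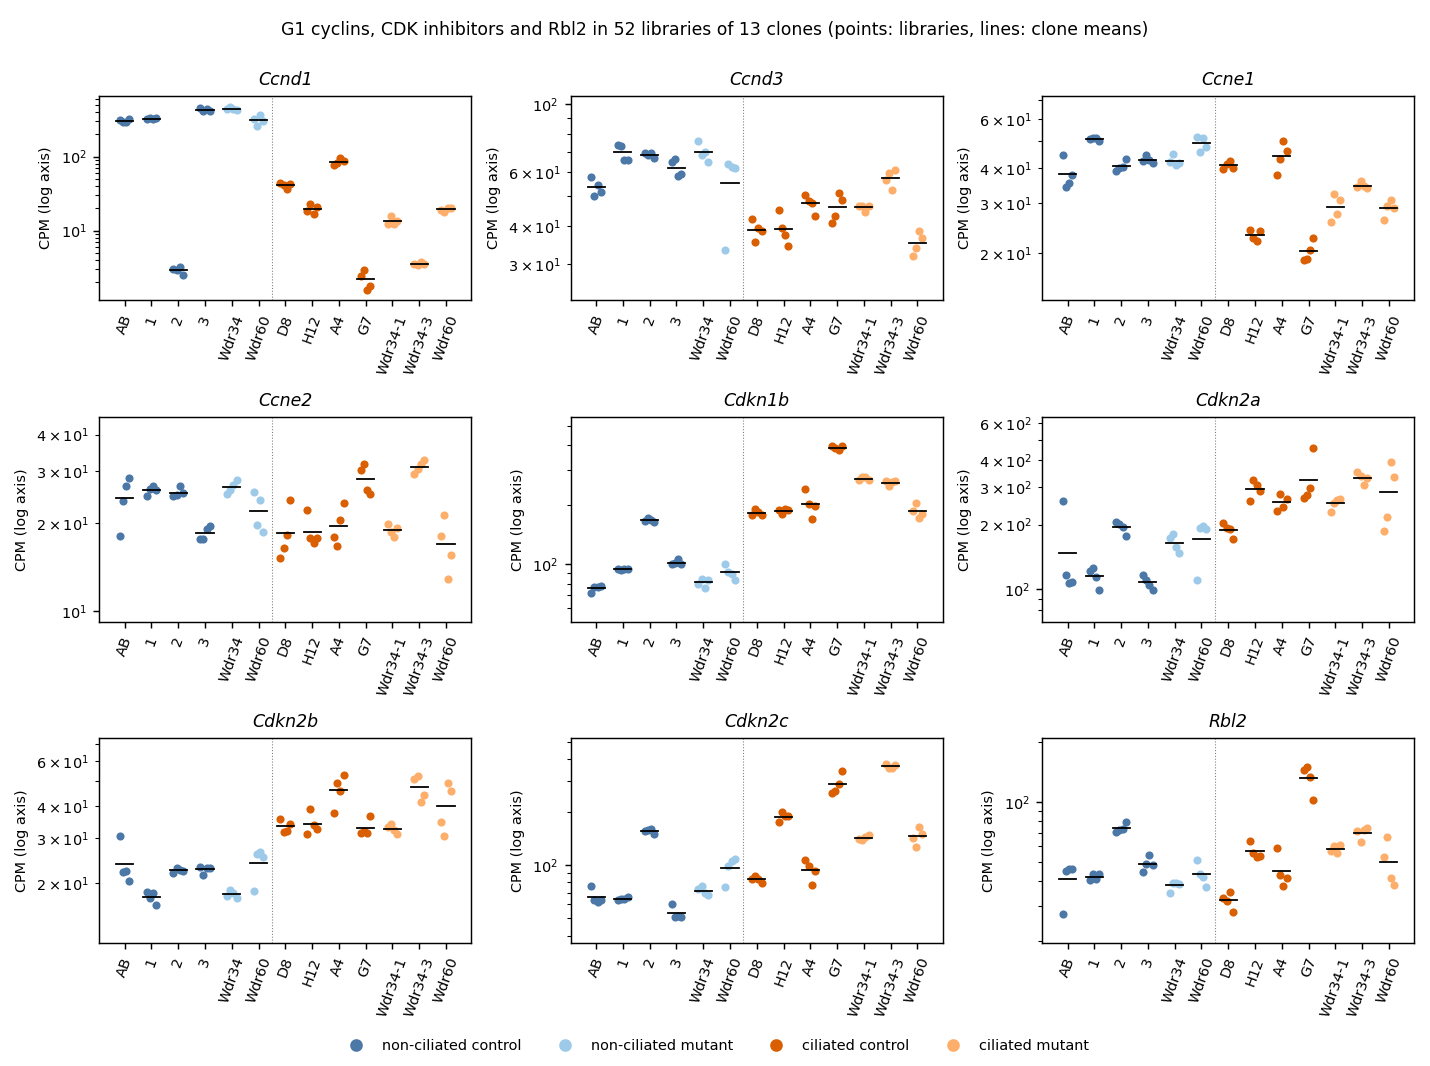
CPM (log axis) of the 9 genes that passed the filter, in the 4 libraries (points) of each of 13 clones with the clone mean (line), non-ciliated clones on the left and ciliated clones on the right of each panel. Ccnd1 was at 307 to 446 CPM in all non-ciliated clones except control 2 (2.92 CPM) and at 2.18 to 85.8 CPM in ciliated clones, while Cdkn1b was at 76.0 to 167 CPM in non-ciliated and 182 to 388 CPM in ciliated clones.

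Ccnd3, another D-type cyclin, was lower in ciliated than in non-ciliated controls without overlap. Non-ciliated controls were at 53.5 ± 3.30 CPM (SD, n = 4 libraries) in AB, 69.5 ± 4.36 in 1, 68.4 ± 1.16 in 2 and 62.0 ± 3.87 in 3. Ciliated controls were at 38.8 ± 2.66 CPM in D8, 39.1 ± 4.44 in H12, 47.4 ± 3.03 in A4 and 46.0 ± 4.78 in G7. It fell by 0.56 on the log2 scale (SE 0.16, edgeR adjusted p = 0.0338), and the exact two-sided permutation test gave p = 0.0286, the smallest that 4 against 4 clones can give. Adjusted over all genes, that permutation p was 0.134 and did not pass. The adjusted p was 0.0620 without controls 2 and G7, and the call was also lost without control 1, 2, 3, D8 or H12, with an adjusted p of up to 0.1. In these fits the log2 difference was -0.57 to -0.51, and without controls 2 and G7 and Wdr34 clone 3 it was -0.57 and called (edgeR, adjusted p = 0.0356). In mutants it was at 69.7 and 55.3 CPM in non-ciliated Wdr34 and Wdr60 and at 46.0, 57.3 and 35.2 CPM in ciliated Wdr34 clone 1, Wdr34 clone 3 and Wdr60. The groups overlapped there (log2 difference -0.45, SE 0.21, edgeR adjusted p = 0.160), and the difference was -0.27 without non-ciliated Wdr34. Ccnd3 lies at chr17:47505051-47599689 (GRCm38, plus strand) and overlaps Bysl, and whether the counting used strand is not given in the sources used here. Ccne2 likewise overlaps Ints8 and Rbl2 overlaps Aktip, both on the opposite strand.

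Ccnd2, also a D-type cyclin, was at or near 0 counts. It had 5 counts in non-ciliated control 3, 1 count in non-ciliated Wdr34 and 0 in the other 11 clones, where 3 counts per clone, the limit that a count of 0 allows for counting error, amount to 0.0391 to 0.0463 CPM. Levels of different genes were compared per kilobase of exon. On that scale Ccnd1 made 89.7% to 92.9% of the D-type cyclin level in 5 non-ciliated clones and 7.37% in control 2. In ciliated clones its share was 77.1% in A4, 66.5% in D8, 50.6% in Wdr60, 48.4% in H12, 35.2% in Wdr34 clone 1, 10.3% in Wdr34 clone 3 and 8.12% in G7. In control 2, G7 and Wdr34 clone 3 most D-type cyclin RNA was therefore Ccnd3, whose own level in them, 5.24 to 7.79 CPM per kilobase, lay within the 4.01 to 7.94 of all 13 clones.

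**Figure D3:**
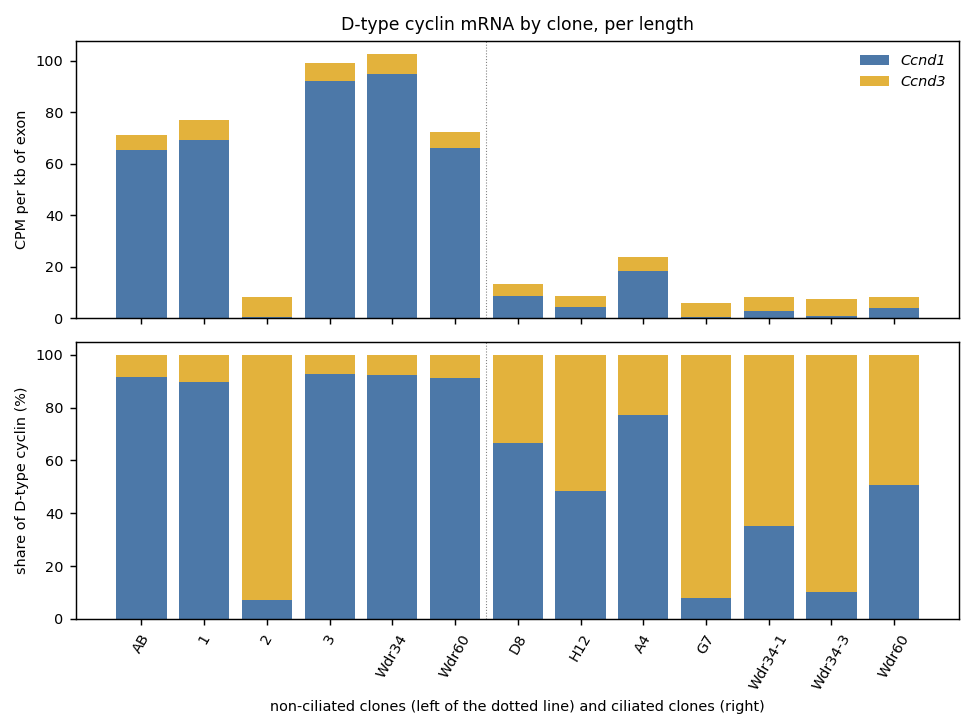
D-type cyclin RNA per clone, as CPM per kilobase of exon in stacked bars of Ccnd1 and Ccnd3 and as the share of each in percent. Ccnd1 made at least 89.7% in 5 non-ciliated clones and 7.37% to 10.3% in control 2, G7 and Wdr34 clone 3.

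Ccnd1 lies at chr7:144929931-144939831 (GRCm38, minus strand), and its neighbours were looked at after its values had been seen. Oraov1, which overlaps its 3′ end, was at 10.1 to 18.1 CPM in all 13 clones, with 12.7 CPM in control 2 and 18.1 CPM in G7. Tpcn2, an endolysosomal channel gene, was at 6.48 to 12.9 CPM in every clone. Ano1, a chloride channel gene, was lowest in the same 3 clones as Ccnd1, at 7.97 CPM in G7, 15.4 in control 2 and 23.1 in Wdr34 clone 3 against 40.3 to 92.9 CPM elsewhere. Of the neighbours named here, Ano1 thus shared the low level of Ccnd1 in these clones, while Oraov1 and Tpcn2 did not. Fgf3, Fgf4 and Fgf15 lie between Ano1 and Ccnd1, and their levels are not given here.

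The E-type cyclins, which act with Cdk2 at the entry to S phase, differed less. Ccne1 was at 38.2 CPM in AB, 51.0 in 1, 40.7 in 2 and 42.9 in 3 among non-ciliated controls, and at 41.0 in D8, 23.1 in H12, 44.3 in A4 and 20.2 in G7 among ciliated controls. D8 and A4 lay within the range of the non-ciliated controls and H12 and G7 below it, and the log2 difference of -0.42 (SE 0.23) did not pass (edgeR, adjusted p = 0.231) and was -0.27 without G7. With the clone as a random block it was -0.49 and called (voomLmFit, adjusted p = 0.0158). In mutants Ccne1 was at 42.6 and 49.2 CPM in non-ciliated and at 28.8 to 34.7 CPM in ciliated clones, without overlap (log2 difference -0.58, SE 0.30, edgeR adjusted p = 0.204). There too the random block gave a call (-0.57, voomLmFit adjusted p = 0.0327). Ccne2 was at 18.5 to 25.8 CPM in non-ciliated and 18.4 to 28.3 CPM in ciliated controls (log2 difference -0.16, SE 0.22, edgeR adjusted p = 0.643). The difference was -0.33 without G7, -0.10 without D8 and -0.29 (SE 0.24, edgeR adjusted p = 0.400) without controls 2 and G7. Its highest levels were in ciliated cells, at 31.1 CPM in Wdr34 clone 3 and 28.3 CPM in G7.

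Of the 4 kinase inhibitors, 3 rose in ciliated control clones, namely Cdkn1b, Cdkn2a and Cdkn2b, while Cdkn2c did not pass the test. Together with Ccnd3, 4 of the 9 genes tested were called in control clones, 3 higher and 1 lower, where 18.4% of all 13994 genes were called, 8.98% higher and 9.46% lower. The clone groups did not overlap for 3 of the 9, against 21.4% of all genes, and the median log2 difference of the 9 was 0.33 against 0.02 over all genes.

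Cdkn1b, which encodes p27, was at 76.0 ± 2.74 CPM (SD, n = 4 libraries) in AB, 94.6 ± 0.603 in 1, 167 ± 3.47 in 2 and 102 ± 2.59 in 3. In ciliated controls it was at 182 ± 6.42 CPM in D8, 186 ± 4.11 in H12, 202 ± 29.6 in A4 and 388 ± 8.66 in G7. Control 2 was the highest of its group and G7 the highest of all clones, and every ciliated control lay above every non-ciliated one. Cdkn1b rose 2.18-fold (log2 difference 1.12, SE 0.29, edgeR adjusted p = 0.0225), with an exact two-sided permutation p = 0.0286. As for Ccnd3, that permutation p was 0.134 when adjusted over all genes and did not pass. Without controls 2 and G7 the difference was 1.05 (SE 0.17, edgeR adjusted p = 0.00371). The call was lost without AB, without control 1 or without control 3, with a difference of 0.98, 1.06 and 1.09 and an adjusted p of up to 0.0740, and in a fit of the control clones alone (1.11, edgeR adjusted p = 0.0557). The difference ranged from 0.78 without G7 to 1.399 without control 2, and the call was kept without either.

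Cdkn2a had the highest median level per kilobase of the 10 genes, and its count joins p16Ink4a, an inhibitor of Cdk4 and Cdk6, with p19Arf, which stabilises p53 through Mdm2. It was at 147 ± 74.1 CPM (SD, n = 4 libraries) in AB, 115 ± 11.7 in 1, 194 ± 12 in 2 and 107 ± 7.64 in 3. Ciliated controls were at 189.8 ± 13.3 CPM in D8, 294 ± 28.0 in H12, 254 ± 21.6 in A4 and 324 ± 89.5 in G7. Control 2 lay just above D8, and the libraries of AB and G7 spread widely. Cdkn2a rose 1.94-fold (log2 difference 0.96, SE 0.22, edgeR adjusted p = 0.0127), with an exact two-sided permutation p = 0.0571, or 0.190 when adjusted over all genes. Without controls 2 and G7 the difference was 1.01 (SE 0.18, edgeR adjusted p = 0.00561), and the adjusted p was at most 0.0480 over the alternatives.

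Cdkn2b, which encodes p15Ink4b and lies next to Cdkn2a, was at 23.8 ± 4.59 CPM (SD, n = 4 libraries) in AB, 17.6 ± 0.984 in 1, 22.4 ± 0.391 in 2 and 22.6 ± 0.705 in 3. Ciliated controls were at 33.3 ± 1.86 CPM in D8, 34.1 ± 3.45 in H12, 46.4 ± 6.59 in A4 and 32.9 ± 2.56 in G7. All ciliated controls lay above all non-ciliated ones, and neither control 2 nor G7 stood apart, at 0.993 times the median of the 5 other non-ciliated and 0.886 times that of the 6 other ciliated clones. Cdkn2b rose 1.71-fold (log2 difference 0.77, SE 0.17, edgeR adjusted p = 0.0108), with an adjusted p of at most 0.0410 over the alternatives. Its exact two-sided permutation p was 0.0286, or 0.134 when adjusted over all genes, which did not pass.

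Cdkn2c, which encodes p18Ink4c, varied between clones within each state. It was at 66.3 CPM in AB, 64.7 in 1, 157 in 2 and 53.5 in 3, and at 83.4 in D8, 189 in H12, 94.4 in A4 and 287 in G7. Control 2 lay above D8 and A4, and the log2 difference of 0.96 (SE 0.48) did not pass (edgeR, adjusted p = 0.187). With the clone as a random block it was 0.90 and called (voomLmFit, adjusted p = 0.00757). It was 0.51 without G7 and 1.43 without control 2. Without both it was 0.98 (SE 0.40, edgeR adjusted p = 0.106), and without Wdr34 clone 3 as well 0.98 (SE 0.29, edgeR adjusted p = 0.0343). The highest level of all clones, 364 ± 10.4 CPM (SD, n = 4 libraries), was in ciliated Wdr34 clone 3.

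Rbl2, which encodes the pocket protein p130 that holds E2F targets silent in resting cells, was at 41.3 CPM in AB, 42.2 in 1, 74.3 in 2 and 48.9 in 3. Ciliated controls were at 32.1 CPM in D8, 56.5 in H12, 45.3 in A4 and 133 in G7. The lowest and the highest ciliated control thus lay on either side of all non-ciliated controls. The log2 difference was 0.33 (SE 0.36, edgeR adjusted p = 0.551), and without controls 2 and G7 it was -0.00305 (SE 0.21, edgeR adjusted p = 0.995).

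**Figure D4:**
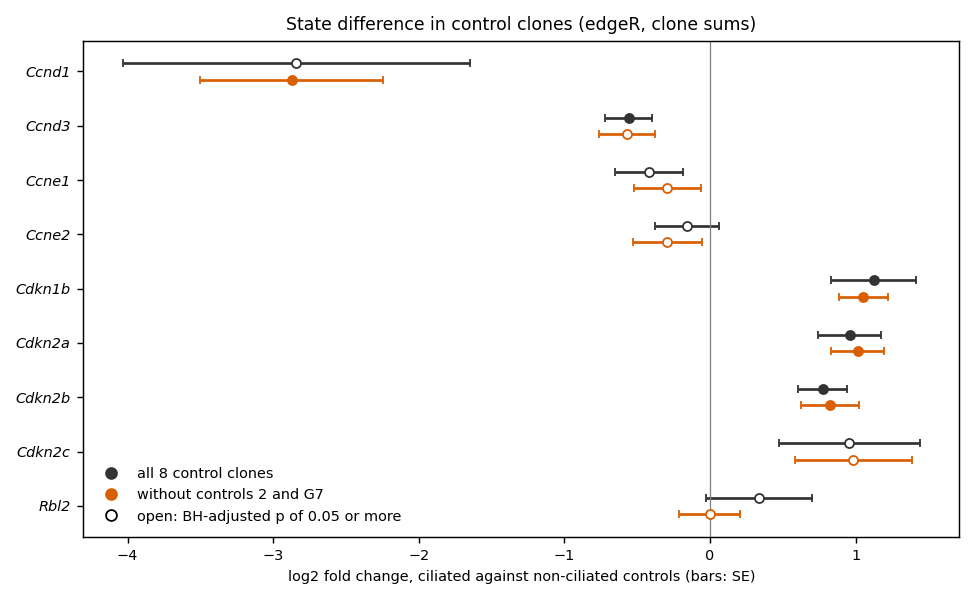
Log2 fold change (points, with SE bars) of ciliated against non-ciliated control clones for the 9 genes that passed the filter, with all 8 control clones and without controls 2 and G7. Open points have an adjusted p of 0.05 or more. Leaving out both clones left Ccnd1 at about the same place, -2.87 against -2.84, with an SE of 0.63 in place of 1.19, and moved Rbl2 from 0.33 to -0.00305.

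Cdkn1b, Cdkn2a and Cdkn2b rose together in ciliated controls, and their promoters are shown for that reason, from 250 bases before to 50 bases after each RefSeq start, 5′ to 3′ on the strand of the gene (RefSeq, GRCm38.p6). They are Cdkn1b at chr6:134920151-134920450 (plus strand), the upstream start of Cdkn2a at chr4:89294570-89294869, the downstream start of Cdkn2a at chr4:89282143-89282442 and Cdkn2b at chr4:89310983-89311282 (all 3 minus strand). Capitals mark the motif words named after them.
Cdkn1b: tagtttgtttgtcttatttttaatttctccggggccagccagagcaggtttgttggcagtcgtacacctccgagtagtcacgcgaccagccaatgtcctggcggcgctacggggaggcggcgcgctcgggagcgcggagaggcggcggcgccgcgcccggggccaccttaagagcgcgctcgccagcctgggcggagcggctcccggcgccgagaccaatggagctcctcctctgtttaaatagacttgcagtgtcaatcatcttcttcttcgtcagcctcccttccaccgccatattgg
Cdkn2a upstream: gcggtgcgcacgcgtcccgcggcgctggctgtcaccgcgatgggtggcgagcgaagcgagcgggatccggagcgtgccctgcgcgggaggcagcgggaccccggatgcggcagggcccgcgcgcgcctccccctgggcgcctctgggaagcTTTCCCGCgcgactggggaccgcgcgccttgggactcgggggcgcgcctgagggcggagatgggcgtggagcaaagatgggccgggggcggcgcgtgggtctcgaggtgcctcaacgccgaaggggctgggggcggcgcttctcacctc
Cdkn2a downstream: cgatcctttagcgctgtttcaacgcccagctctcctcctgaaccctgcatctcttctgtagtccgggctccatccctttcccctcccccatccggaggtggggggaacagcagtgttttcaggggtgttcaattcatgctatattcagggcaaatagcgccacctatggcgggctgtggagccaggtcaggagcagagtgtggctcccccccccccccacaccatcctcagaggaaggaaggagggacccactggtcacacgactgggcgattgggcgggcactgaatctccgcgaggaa
Cdkn2b: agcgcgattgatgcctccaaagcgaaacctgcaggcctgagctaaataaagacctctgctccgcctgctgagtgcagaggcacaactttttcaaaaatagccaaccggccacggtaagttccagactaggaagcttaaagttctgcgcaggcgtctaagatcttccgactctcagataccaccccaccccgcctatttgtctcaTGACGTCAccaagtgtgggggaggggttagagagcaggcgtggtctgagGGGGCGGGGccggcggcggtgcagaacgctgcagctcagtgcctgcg

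Searched on both strands were E2F (TTTGGCGC, TTTCGCGC, TTTCCCGC or TTTGCCGC), the cyclic AMP response element (TGACGTCA), the GC box (GGGGCGGGG), AP-1 (TGANTCA) and FOXO (GTAAACA), and none of these words contains another. The upstream start of Cdkn2a held the E2F word TTTCCCGC at position -99 from the start, and 2.26% of 32851 mouse promoters of this length held an E2F word. Cdkn2b held TGACGTCA at position -46, a word in 1.79% of promoters, and a GC box at position 3, a word in 11.4%. The windows of Cdkn1b and of the downstream Cdkn2a start held none of the words. Of the 10 windows found for the genes, 4 held a GC box, 1 the FOXO word, which is in 3.65% of promoters, and 0 AP-1, which is in 7.81%. Ccnd1, Ccnd2 and Ccne2 had no entry. A match describes these letters only.

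The state difference in mutant clones rests on 3 ciliated and 2 non-ciliated clones, with which a permutation test cannot go below 0.1. In mutants 2 of 9 genes were called, both higher, where 12.9% of all genes were called, 5.32% higher, and 7 of 9 did not overlap, where 52.4% of all genes did not. Cdkn1b was at 81.0 and 91.1 CPM in non-ciliated Wdr34 and Wdr60 and at 270.5, 258 and 185 CPM in ciliated Wdr34 clone 1, Wdr34 clone 3 and Wdr60. It rose 2.74-fold (log2 difference 1.46, SE 0.39, edgeR adjusted p = 0.0339). Cdkn2b was at 18 and 24 CPM in non-ciliated and 32.6, 47.4 and 40.1 CPM in ciliated mutants, and rose 1.89-fold (log2 difference 0.91, SE 0.22, edgeR adjusted p = 0.0237). The call of each was lost when either non-ciliated mutant clone or Wdr34 clone 3 was left out, also without Wdr34 clone 1 for Cdkn1b and without ciliated Wdr60 for Cdkn2b, with an adjusted p of up to 0.238 and 0.236 (edgeR). In these fits the log2 difference was 1.34 to 1.53 for Cdkn1b and 0.73 to 1.12 for Cdkn2b. The call of Cdkn2b was also lost in a fit of the mutant groups alone (0.92, edgeR adjusted p = 0.0560). Cdkn2a was at 165 and 172 CPM in non-ciliated and 252, 332 and 283.5 CPM in ciliated mutants, without overlap, and did not pass (log2 difference 0.77, SE 0.28, edgeR adjusted p = 0.0922). It passed in a fit of the mutant groups alone (edgeR, adjusted p = 0.0391) and without controls 2 and G7 (edgeR, adjusted p = 0.0273). Without controls 2 and G7 and Wdr34 clone 3 it did not (edgeR, adjusted p = 0.0564). Cdkn2c, at 71.6 and 96.9 against 143, 364 and 146 CPM, did not pass either (log2 difference 1.35, SE 0.65, edgeR adjusted p = 0.177), and the difference was 0.77 without Wdr34 clone 3. With the clone as a random block it was 1.24 and called (voomLmFit, adjusted p = 0.00549). Rbl2 was at 38.1 and 43.5 against 58.3, 70.4 and 49.8 CPM (log2 difference 0.53, SE 0.48, edgeR adjusted p = 0.472).

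Wdr60 alone was labelled with 1 clone in each state, whereas Wdr34 had more than 1 ciliated clone. The Wdr60 ratios rest on 1 clone mean each, so they carry no test. Ccnd1 was 16.0-fold lower in ciliated than in non-ciliated Wdr60 cells, Ccne1 1.71-fold, Ccnd3 1.57-fold and Ccne2 1.29-fold lower. Cdkn1b was 2.04-fold higher, Cdkn2b 1.67-fold, Cdkn2a 1.65-fold, Cdkn2c 1.51-fold and Rbl2 1.14-fold higher. By clone mean, the cyclins tested thus lay below and the inhibitors above their non-ciliated level in this pair. Single libraries were apart for Ccnd1, Ccne1, Cdkn1b, Cdkn2b and Cdkn2c but overlapped for the others. Cdkn2a was at 110.6 to 196 CPM in non-ciliated and 186 to 394 CPM in ciliated libraries. Ccne2 was at 18.7 to 25.4 and 12.9 to 21.3 CPM, and Rbl2 at 37.5 to 51.2 and 38.3 to 66.6 CPM. For Ccnd3 only library 1 of non-ciliated Wdr60, at 33.3 CPM, reached the ciliated libraries.

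Genotype was compared within each state, and none of the 9 genes was called or reached an unadjusted p under 0.05. In ciliated cells 0% of all genes were called (edgeR, 272 genes or 1.94% at an unadjusted p under 0.05, and 3 called by DESeq2), and in non-ciliated cells likewise 0% (edgeR, 516 or 3.69% at an unadjusted p under 0.05, and 14 called by DESeq2). Mutant and control clones overlapped for all 9 genes in both states, where 2.11% and 13% of all genes did not overlap. Ccnd1 had a log2 difference of -1.62 in ciliated mutants (SE 1.26, edgeR adjusted p = 1), with A4, D8 and H12 above and G7 below every mutant clone. Without controls 2 and G7 it was -2.01 (SE 0.61, edgeR adjusted p = 0.818), without Wdr34 clone 3 as well -1.57 (SE 0.52), and it ranged from -2.12 without ciliated Wdr60 to -0.79 without A4. In non-ciliated cells its log2 difference was 0.52 (SE 1.34, edgeR adjusted p = 1), and 0.10 (SE 0.65) without controls 2 and G7. It was 0.85 without control 3 and reached 1.80 over the alternatives. Cdkn2c had a log2 difference of 0.40 in ciliated cells (SE 0.51, edgeR adjusted p = 1), which was -0.19 without Wdr34 clone 3 and 0.84 without controls 2 and G7. Cdkn1b and Cdkn2a had log2 differences of -0.34 (SE 0.36) and 0.30 (SE 0.26) in non-ciliated cells, which were -0.08 (SE 0.19) and 0.49 (SE 0.20) without controls 2 and G7 (edgeR, adjusted p = 1 for each).

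Whether the state difference itself differed between mutants and controls was tested as an interaction, which called 0 of 13994 genes (edgeR, 136 or 0.972% at an unadjusted p under 0.05, none among the 9, and 0 by DESeq2). Its log2 value was -2.14 (SE 1.81) for Ccnd1, 0.33 (SE 0.47) for Cdkn1b and -0.19 (SE 0.35) for Cdkn2a. Without controls 2 and G7 these were -2.11 (SE 0.88), 0.41 (SE 0.25) and -0.25 (SE 0.27), and 0 genes were called. With 1 clone left out it ranged from -2.63 without ciliated Wdr60 to -1.30 without A4 for Ccnd1, from 0.06 without control 2 to 0.68 without G7 for Cdkn1b and from -0.40 without control 2 to -0.04 without G7 for Cdkn2a. With errors of this size the comparisons do not show that mutants and controls are alike.

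For levels between genes, CPM were divided by the length of the merged exons in GENCODE vM21. The median over the 13 clones was 166 CPM per kilobase for Cdkn2a, 40.0 for Cdkn1b, 36.1 for Cdkn2c, 23.4 for Cdkn2b, 15.3 for Ccne1, 8.77 for Ccnd1, 6.47 for Rbl2, 6.27 for Ccne2, 6.10 for Ccnd3 and 0 for Ccnd2. Rbl2, Ccne2 and Ccnd3, at 4.25 to 17.6, 4.85 to 8.90 and 4.01 to 7.94 CPM per kilobase, overlapped, as did all neighbours in this order except Cdkn2a with Cdkn1b and Ccnd3 with Ccnd2. Within each clone Cdkn2a lay above all the other genes, except in non-ciliated control 3, where it was at 91.4 and Ccnd1 at 92.2. By state, the median of Ccnd1 was 67.5 CPM per kilobase in the 6 non-ciliated and 4.12 in the 7 ciliated clones, while that of Cdkn2a was 133 and 242.

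On log2 clone means Ccnd1 had a Pearson r of -0.90 with Cdkn2c, -0.88 with Cdkn1b, -0.81 with Cdkn2a and -0.77 with Rbl2. Without control 2, G7 and Wdr34 clone 3 the 10 remaining clones gave -0.87, -0.92, -0.86 and -0.47, values that still hold the difference between the states. Within the 7 ciliated clones they were -0.92, -0.81, -0.72 and -0.87, and without G7 -0.92, -0.63, -0.66 and -0.77. For Cdkn2b r was -0.59 over 13 clones and -0.78 over the 10, but 0.13 within ciliated clones and -0.12 there without G7. Within the non-ciliated clones no r is given, because control 2 alone spans the range of Ccnd1. In the 5 others, with Ccnd1 at 307 to 446 CPM, Cdkn1b was at 76.0 to 102 CPM and Rbl2 at 38.1 to 48.9 CPM. The values of Ccne2 turned with the clones used. With Ccnd1, Cdkn1b and Cdkn2a its r was -0.20, 0.00485 and 0.04 over 13 clones, 0.73, -0.77 and -0.58 over the 10 and -0.79, 0.74 and 0.67 within ciliated clones. The points share state, serum and library scaling, and the values are a description without a test.

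**Figure D5:**
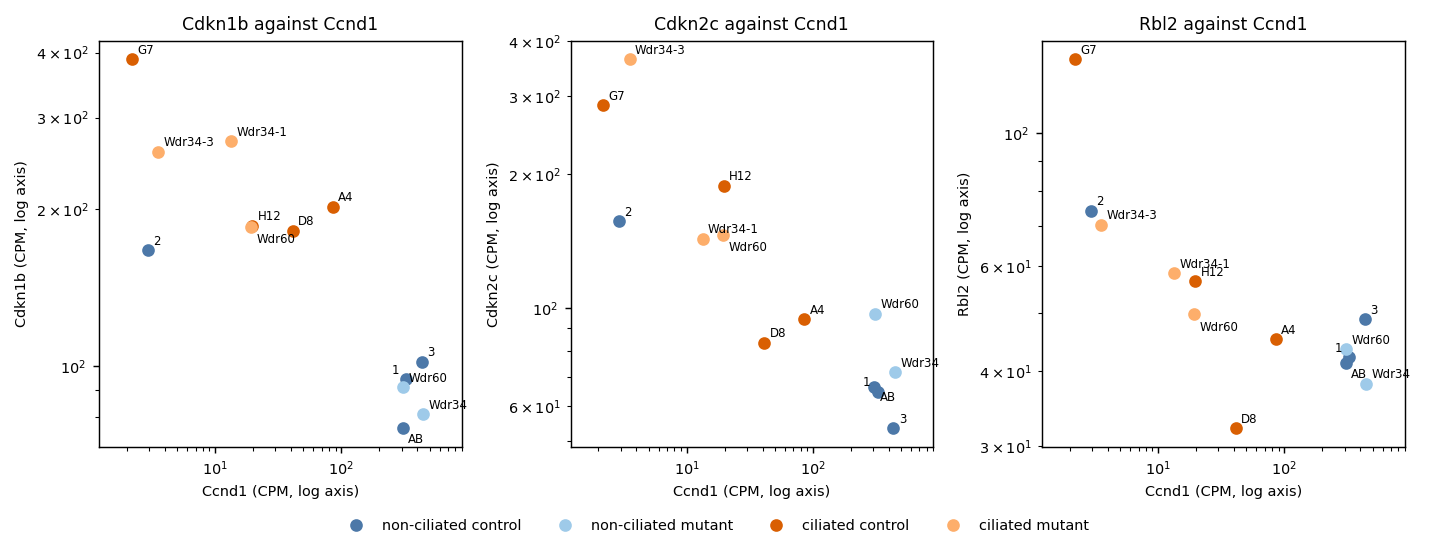
Clone mean CPM (log axes) of Cdkn1b, Cdkn2c and Rbl2 against Ccnd1, 1 point per clone, for 13 clones. Over all 13 clones r was -0.88, -0.90 and -0.77, and control 2 lay with the ciliated clones.

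For the 3 genes with the highest mean CPM, the genes most alike in pattern were found by Pearson r of log2 clone means over the 13 clones. For Cdkn2a these were Npc2 (r = 0.97), Map2k5 (0.97) and Rxrb (0.96), and for Cdkn1b Mtmr3 (0.98), Pcnx (0.98) and Ubn1 (0.98). For Ccnd1 they were Nbeal2 (0.98), Cdc73 (0.97) and Smyd2 (0.97). Nbeal2, the closest to Ccnd1, was at 98.6 to 146 CPM in the 5 other non-ciliated clones, 36.1 CPM in control 2, 25.8 in G7 and 24.6 in Wdr34 clone 3. Mtmr3, the closest to Cdkn1b, was at 96.7 to 109 CPM in those 5 clones, 154 CPM in control 2 and 255 CPM in G7.

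The kinases, pocket proteins, E2F factors and regulators around these genes were taken as a list of 35 further G1/S genes, of which 34 were tested. In control clones 7 rose and 2 fell, where 8.98% and 9.46% of all genes did, with a median log2 difference of 0.14. Foxo3, a forkhead factor held out of the nucleus by growth factor signalling, rose 2.51-fold, from 19.4 to 24.1 CPM in non-ciliated to 44.4 to 66.4 CPM in ciliated controls (log2 difference 1.33, SE 0.16, edgeR adjusted p = 0.00136). Foxo1, its relative, rose by 0.97 on the log2 scale (edgeR, adjusted p = 0.00769), and the E2F partner gene Tfdp2 by 1 (edgeR, adjusted p = 0.0174). E2f1, an activating E2F, rose by 0.90 (edgeR, adjusted p = 0.00417), Lin37, a subunit of the DREAM repressor complex, by 0.68 (edgeR, adjusted p = 0.00926), and Cdk2, the partner of cyclin E, by 0.61 (edgeR, adjusted p = 0.0121). The seventh that rose was Dyrk1a, a kinase that acts on Lin52. The genes that fell were Skp2, which marks p27 for destruction, by 0.57 (edgeR, adjusted p = 0.00686), and the repressive E2f4, by 0.51 (edgeR, adjusted p = 0.0420), a call lost in 14 of 28 alternatives.

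Of 2 partners and relatives of these genes that were looked at after their values were seen, Cdk4 was at 423 to 621 CPM in the 8 controls (edgeR, adjusted p = 0.249). Cdkn1a, encoding p21, was at 26.5 CPM in control 2 and 64.2 CPM in G7, against 112 to 266 CPM in the other non-ciliated and 371 to 444 CPM in the other ciliated controls. Control 2 and G7, with the highest Cdkn1b of the controls of their state, thus had the lowest Cdkn1a. In mutants 5 of the 34 genes rose and 1 fell, where 5.32% and 7.53% of all genes did.

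Of 20 S phase genes 2 rose and 3 fell in ciliated controls, near the 8.98% and 9.46% of all genes. Those that rose were the replication licensing genes Cdt1 (log2 difference 0.74, edgeR adjusted p = 0.00230) and Mcm6 (0.50, edgeR adjusted p = 0.0263). The 3 that fell serve nucleotide synthesis, Rrm1 by 0.59, Rrm2 by 0.52 and Tk1 by 0.35, and the median of the list was 0.07. The calls of Rrm2 and Tk1 were lost in 15 and 17 of 28 alternatives, and that of Mcm6 in 5. Of 18 G2/M genes 7 fell and 0 rose, where 9.46% and 8.98% of all genes did, with a median of -0.35 against 0.02 over all genes. The list summed to 4985 CPM in G7, within the 4438 to 5148 CPM of the non-ciliated controls, and to 3188 to 4048 CPM in the other ciliated controls. The spindle checkpoint kinase gene Bub1 fell by 0.94 (SE 0.13, edgeR adjusted p = 0.00229), from 195 to 259 CPM in non-ciliated to 93.4 to 130.5 CPM in ciliated controls. Aurka and Plk1, which encode mitotic kinases, fell by 0.79 and 0.66, the spindle genes Kif20a and Tpx2 by 0.78 and 0.60, and Top2a by 0.44, with Ccnb1 as the seventh. The call of Top2a was lost in 14 of 28 alternatives, that of Kif20a in 2, and those of Bub1, Aurka, Plk1 and Tpx2 in 1 each. Mki67, a proliferation marker chosen after its values were seen, was not called, at 409 to 512 CPM in non-ciliated controls, 362 to 407 CPM in D8, A4 and H12 and 663 CPM in G7. In mutants, where 5.32% of all genes rose and 7.53% fell, 1 S phase gene rose and 2 fell, near those shares, and 5 G2/M genes fell and 0 rose. Transcripts of dividing cells were present in every ciliated clone, with Mki67 at 329.9 CPM or more.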

How the data were processed

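The authors mapped paired reads to GRCm38/mm10 with Rsubread, counted them per gene symbol with featureCounts in R 3.4.4 and deposited whole-number counts without normalization, 1 file per library. Strand and treatment of multimapping reads are not given in the sources used here. The 4 technical libraries of a clone were summed, since nothing says that they came from separate cultures, and the 13 sums were tested with the edgeR 4.0.16 quasi-likelihood F test (R 4.3.3) in 1 fit of the 4 groups of state and genotype, with TMM factors, filterByExpr and Benjamini-Hochberg adjustment over all genes. A gene was called at an adjusted p under 0.05. P-values measure the spread between clones of a group. CPM were scaled by TMM over the 52 libraries, and exact permutation tests and correlations of clones used clone means of log2(CPM + 0.5). The correlations with Ccnd1 within ciliated clones without G7 instead used log2 of the clone mean CPM + 0.5. Permutation p-values are unadjusted except where stated. The script was tested on simulated data. Alternatives were DESeq2 1.42.0, limma 3.58.1, other filters, single libraries as samples and leaving out clones. The rule for named genes took all 10 genes and up to 6 called genes of largest size per list. Dyrk1a, Skp2, E2f4 and Ccnb1 fall outside it and were named after their values were seen, to complete a count, and other such genes are marked in the text. The members and lists were chosen with earlier results of these data known. 1 gene of the epithelial marker list is not reported here.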

Additional observations from a re-analysis of the deposited data

Results flagged for a closer look

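Of 135 groups of 4 values, either the libraries of a clone or the control clones of a state, 18 had 1 value far from the other 3, where chance gives about 1 in 20. Of these, 4 were clones. G7 lay apart in Cdkn1b, at 388 CPM against 182 to 202 CPM in the other ciliated controls, and in Ccne2, at 28.3 CPM against 18.4 to 19.6 CPM. A4 lay apart in Cdkn2b, at 46.4 CPM against 32.9 to 34.1 CPM, and non-ciliated control 2 in Cdkn2c, at 157 CPM against 53.5 to 66.3 CPM.

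Library 1 of control AB lay apart from its 3 sister libraries in 4 genes, with Cdkn2a at 258 CPM against 107 to 116, Cdkn2c at 76.3 against 61.7 to 63.8, Cdkn1b at 72.0 against 77.1 to 77.9 and Rbl2 at 27.5 against 45.3 to 46.2. Library 1 of non-ciliated Wdr60 did so in 3 genes, with Ccnd3 at 33.3 CPM against 61.8 to 63.8, Cdkn2a at 110.6 against 190.1 to 196 and Cdkn2b at 18.5 against 25.2 to 26.3. Library 4 of G7 did so in Cdkn2a, at 457 CPM against 268 to 296, and Cdkn2b, at 36.7 against 31.3 to 32. The other 5 were Ccnd3 in library 3 of ciliated Wdr34 clone 1, at 44.5 CPM against 46.4 to 46.5, Ccne2 in library 1 of H12, at 22.1 against 17.1 to 17.8, Cdkn2b in library 2 of control 3, at 21.5 against 22.8 to 23.1, Cdkn2c in library 1 of control 3, at 60.1 against 51.0 to 51.7, and Rbl2 in library 1 of non-ciliated Wdr34, at 35.1 against 38.7 to 39.4.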

How the results depend on the processing

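Over 26 other settings and 2 chosen after seeing the data, 49 single-gene results gave 1294 values, of which 1142 kept direction and side of the threshold, 110 lost the call, 38 gained it and 4 turned. Rbl2 in controls turned to -0.00305 without controls 2 and G7 and to -0.00253 without Wdr34 clone 3 as well, and ranged from -0.23 to 0.56 when 1 clone was left out. Cdkn2c between genotypes in ciliated cells ranged from -0.19 to 0.84 in the same way. The cause was not tested. In controls 2580 genes were called, 7760 with libraries as samples, 871 with a log2 change of at least 1, 1178 (without control 1) to 3063 (without control 2) when 1 clone was left out, and 2404 to 2505 without 1 library number. The 4 members called became 7 with libraries as samples, 7 with the clone as a random block (voomLmFit), 1 with the change limit and 2 to 4 without 1 clone, with 2 reached without control 1 or without control 3. In mutants 1799 genes were called, 2994 by DESeq2, 7572 with libraries as samples, 2726 by voomLmFit, 916 with the change limit, 2897 without controls 2 and G7, 2810 without Wdr34 clone 3 as well, 31 (without non-ciliated Wdr34) to 2273 without 1 clone and 1371 to 1845 without 1 library number. The 2 members called there became 8 with libraries as samples, 5 by voomLmFit, 1 with the change limit, 4 without controls 2 and G7, and 0 to 3 without 1 clone. Between genotypes 0 genes became 3 by DESeq2, 824 with libraries as samples and 9 by voomLmFit in ciliated cells, and 14, 1314 and 7 in non-ciliated cells, and 0 became 237 with libraries as samples for the interaction. Libraries as samples treat the 4 technical libraries of a clone as replicates. Same-numbered libraries of different clones of a state had deviations correlated at -0.406 to 0.715 (median 0.0122, 144 pairs). Differently numbered ones were at -0.760 to 0.808 (median -0.00609, 432 pairs). The numbers were therefore not taken to pair libraries, and pairing between single clones was not tested. With the library number as a replicate block 7625 genes and 7 members were called in controls, 7458 and 7 in mutants, 651 and 1141 between genotypes in ciliated and non-ciliated cells and 168 for the interaction. A fit of only the groups compared could not be made for the interaction. Depth limits Ccnd2, at 0 to 5 counts per clone.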
